A study of Mus musculus with 89 samples.

Results

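Serum of young mice, and the same serum after removal of extracellular vesicles (EVs), were compared for their effect on hippocampal RNA of aged mice. The 28 libraries described here are 14 of mice that received young serum (YS) and 14 of mice that received young depleted serum (YDS), out of 38 hippocampal libraries of the infusion experiment and 89 samples in the series. The remaining 10 hippocampal libraries are of sham-injected mice (Sham). They entered the same fit. All mice were aged wild-type (WT) C57BL/6 males, 21 to 24 months old in the description of the study. YS mice received 100 µL of serum of young WT mice into the tail vein every 3 days over 25 days. YDS mice received the same volume of young serum from which bulk EVs had been removed with the precipitation reagent ExoQuick. Sham mice received saline. Behaviour was tested during the last injections, and the hippocampus and choroid plexus of 1 hemisphere were dissected after perfusion with buffered saline. The sample labels name only the tissue and describe every infusion library as one of young serum, so the arm of each library was read from the name of its column in the table of CPM (a read count divided by the total of its library and put on a common scale). The tissue label of every library is hippocampus, while the extraction protocol in the labels speaks of cortex for the RNA, and a legend of the study gives other group sizes than the table header. The 34 mice with both tissues carried the same arm name in both tables. Each mouse gave 1 hippocampal library, and the animal numbers of the column names are used here to name the mice.

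EVs are membrane particles that cells release into blood and that carry RNA, protein and lipid. Blood does not reach the hippocampus freely. The choroid plexus, a secretory epithelium in the ventricles beside the hippocampus, makes the cerebrospinal fluid and forms the barrier between it and the blood. Its cells make very large amounts of transthyretin (*Ttr*) and folate receptor 1 (*Folr1*), and they are a main site of transcription of *Kl* in the brain. *Kl* encodes α-Klotho, a membrane protein that acts as a co-receptor of fibroblast growth factor (FGF) receptors, can be shed into the fluid, and is known for its link to ageing. A piece of hippocampus that holds a little choroid plexus therefore also holds its transcripts. In bulk tissue, fewer cells of a type and less RNA per cell cannot be told apart.

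The libraries held 23231524 to 40801000 counted reads over 14440 genes. *Camk2a*, a kinase of excitatory neurons and here the marker of hippocampal tissue, was at 4207 to 6622 CPM in YS, 4212 to 7184 CPM in YDS and 3638 to 6767 CPM in Sham libraries, so this marker was high in each library. The Y-linked *Ddx3y* was between 8.74 and 65.5 CPM in every library and the table has no row for *Xist*, while the sample labels give male mice and the legends of the study give both sexes. Several libraries stood apart. YS mice H422 and H423 held far more choroid plexus transcripts than any other. YS mouse H427, YDS mouse H424 and Sham mice H405, H406 and H407 stood apart on the first principal component, which holds 27% of the variance. YS mice H401 and H429, YDS mouse H439 and Sham mice H408 and H410 each had over 100 genes without a read, with 443 in mouse H401. The counts over all genes, and those of the lists with 2 or more members at an unadjusted p under 0.05 on 1 side, are also given without each of these sets.

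No gene passed the test of YS against YDS. Of 14440 genes, 0 (0%) had an adjusted p under 0.05 by limma on log2(CPM + 0.5) with the Benjamini-Hochberg method, a scale that understates differences of low genes. At an unadjusted p under 0.05, 179 genes (1.24%) were higher in YS and 729 (5.05%) were lower. These unadjusted counts describe the libraries and call no gene. On the whole reads behind the CPM, edgeR also called 0 genes, with an unadjusted p under 0.05 for 318 higher and 444 lower genes. On the same reads limma-voom called 0 genes and DESeq2 called 1, *Llgl2*. Without mice H422 and H423, limma called 0 genes, with 128 higher and 741 lower. Without mice H427, H424, H405, H406 and H407 it called 0, with 242 higher and 929 lower. Without mice H401, H429, H439, H408 and H410 it called 0, with 167 higher and 545 lower. These 3 sets were chosen after the values were seen. Against Sham, 5 genes (0.0346%) passed in YS, namely *Ctr9*, *Kcnj6*, *Zfp507*, *Arhgef28* and *Dock9*, and 0 (0%) in YDS. The 5 rested on the choice of libraries: none passed without mice H422 and H423 or without mice H401, H429, H439, H408 and H410, and 653 passed without mouse H427. At an unadjusted p under 0.05, YS against Sham had 1115 genes (7.72%) higher and 1402 (9.71%) lower, and YDS against Sham had 935 (6.48%) higher and 856 (5.93%) lower. The comparisons with Sham share libraries with YS against YDS, so their values are only set beside it.

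**Figure D1:**
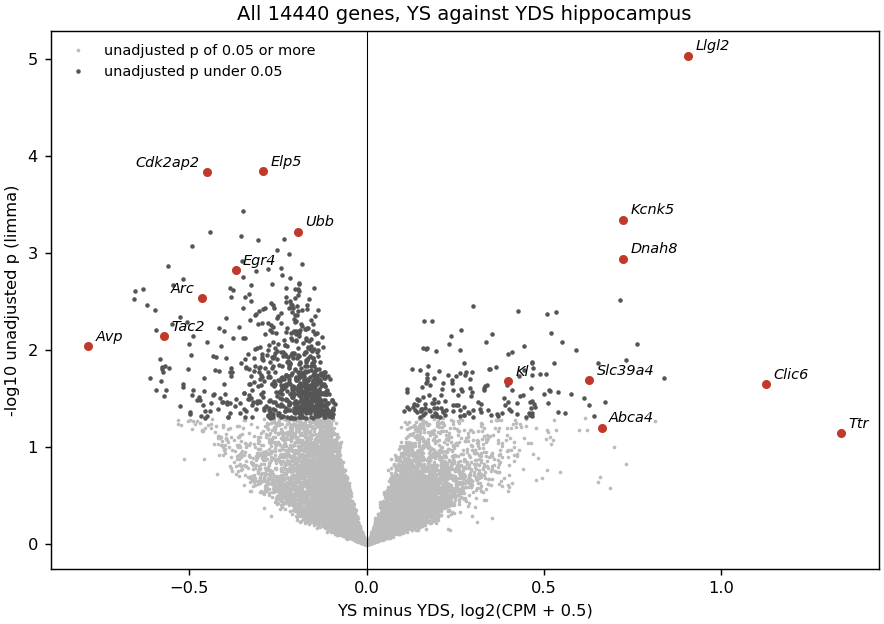
Difference of YS minus YDS on the log2(CPM + 0.5) scale (x axis) against -log10 of the unadjusted p by limma (y axis) for 14440 genes, with 15 genes marked. *Llgl2* stands highest, at a difference of 0.91, and the 729 genes on the lower side at an unadjusted p under 0.05 outnumber the 179 on the higher side.

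The genes on either side differed in transcript length. Merged exon lengths had a median of 7.07 kb for the 178 of 179 higher genes with a length, 2.51 kb for 719 of 729 lower genes and 4.49 kb for 14225 of all genes. In each library, exon length and the gene's distance from its average over the 38 libraries gave 1 rank correlation across genes. It averaged 0.10 ± 0.16 in YS and -0.04 ± 0.16 in YDS libraries (SD, n = 14 each), a difference of 0.14 (two-sided permutation test, p = 0.0274). Within mice H401 to H419 the difference was 0.19 (6 YS against 6 YDS, exact permutation test, p = 0.0909), and within mice H421 to H440 it was 0.10 (8 YS against 8 YDS, exact permutation test, p = 0.186). After a smooth trend on length was taken out per library, 195 genes stood higher and 410 lower by the same unadjusted limit, and 0 passed after adjustment. With scaling by TMM factors the counts were 292 and 539. The part of transcript length in the lower group was not tested beyond these values.

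Choroid plexus transcripts stood higher in a few YS libraries. Of 27 listed choroid plexus genes 16 were measured. Of these, 15 had a positive difference, beside 6617 of all 14440 genes. At an unadjusted p under 0.05, 5 were higher, against 1.24% of all genes, and 0 were lower. The median was 0.46, against -0.01 over all genes tested. The count of 5 rested on mice H422 and H423: without them it was 0. It was 4 without mice H427, H424, H405, H406 and H407, and 7 without mice H401, H429, H439, H408 and H410. It was 1 within mice H401 to H419, with a median of 0.01, and within mice H421 to H440 it was 7, with a median of 0.88. Of all 14440 genes, 148 were higher in the first range and 180 in the second. After adjustment 0 of the 16 passed. *Ttr* was at 1.74 CPM in the lowest, 14.5 in the median and 1232 in the highest YS library, and at 0.845, 7.48 and 158 CPM in YDS libraries. In Sham libraries it was at 1.83, 11.8 and 263 CPM. Mice H423 and H422, both YS, were at 1232 and 658 CPM, the next YS library was at 28.8 CPM, and YDS mouse H439 and Sham mouse H405 held the highest values of their arms. The difference in *Ttr* was 1.34 (standard error 0.72, unadjusted p = 0.0711, adjusted p = 0.816 by limma).

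*Folr1* showed the same libraries. It was at 0.098, 0.781 and 22.4 CPM in YS libraries and at 0, 0.56 and 3.21 CPM in YDS libraries (lowest, median and highest), with a difference of 0.81 (standard error 0.41, unadjusted p = 0.0536, adjusted p = 0.785 by limma). *Clic6*, an intracellular chloride channel protein of the choroid epithelium, had the smallest unadjusted p of the list. It was at 0.219, 4.69 and 75 CPM in YS and at 0.423, 1.7 and 5.52 CPM in YDS libraries, a difference of 1.13 (standard error 0.47, unadjusted p = 0.0223). The other members at an unadjusted p under 0.05 were *Enpp2*, which encodes autotaxin, with 0.61, the prolactin receptor *Prlr* with 0.67, the channel *Trpm3* with 0.25 (0.13 with the length trend removed), and *Lbp* with 0.56. In each of these genes the arms overlapped. Without mice H422 and H423 the median of the list was 0.19, and the difference was 0.43 for *Ttr*, 0.23 for *Folr1* and 0.52 for *Clic6*.

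As a single value per library, the mean of the 16 genes on the log2(CPM + 0.5) scale was 3.25 ± 0.97 in YS and 2.73 ± 0.36 in YDS libraries (SD, n = 14 each), a difference of 0.51 (two-sided permutation test, p = 0.0629). Sham libraries had 2.95 ± 0.41 (SD, n = 10). Without mice H422 and H423 the difference was 0.15 (12 YS against 14 YDS, permutation test, p = 0.266). It was 0.03 within mice H401 to H419 (6 against 6, exact permutation test, p = 0.788) and 0.87 within mice H421 to H440 (8 against 8, exact permutation test, p = 0.0646). Both mice with the high values belong to the second range. On the log2 summed CPM of the list the difference was 0.57 (permutation test, p = 0.0415).

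**Figure D2:**
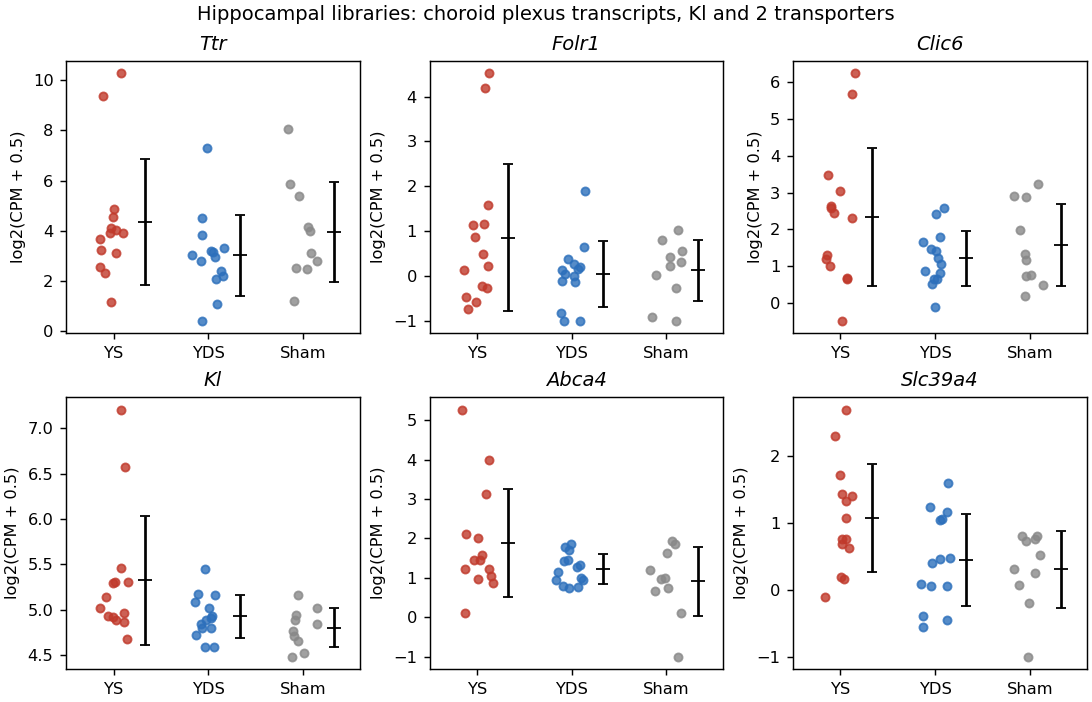
Level on the log2(CPM + 0.5) scale (y axis) of 3 choroid plexus transcripts (*Ttr*, *Folr1*, *Clic6*), *Kl* and the transporters *Abca4* and *Slc39a4* in YS (n = 14), YDS (n = 14) and Sham (n = 10) libraries. Points are libraries and bars are the mean with SD. In each gene shown the highest 2 YS points, mice H422 and H423, lie above all other libraries.

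*Kl* lies on chromosome 5 from 150952607 to 150993817 on the forward strand (GRCm38), and no other annotated gene overlaps it. It was at 25 CPM in the lowest, 33.3 in the median and 147 in the highest YS library, and at 23.5, 29.3 and 43.1 CPM in YDS libraries. In Sham libraries it was at 21.9, 27.4 and 35.4 CPM. Mouse H423 was at 147 CPM and mouse H422 at 94.5 CPM, the other 12 YS libraries were at 25 to 43.6 CPM, and 11 of 14 YS libraries lay above the YDS median. The arms overlapped. The difference of YS minus YDS was 0.40 (standard error 0.17, unadjusted p = 0.0207, adjusted p = 0.744 by limma), beside 0.52 for YS minus Sham and 0.13 for YDS minus Sham. By edgeR the difference was 0.60 (unadjusted p = 0.00205, adjusted p = 0.91). Without mice H422 and H423 it was 0.14 (unadjusted p = 0.139), and with the choroid plexus score as a covariate 0.09 (unadjusted p = 0.37). Within mice H401 to H419 it was 0.27 (unadjusted p = 0.0449) and within mice H421 to H440 it was 0.49 (unadjusted p = 0.0752). In the H401 to H419 range, where the choroid plexus score differed by 0.03, the 6 YS and 6 YDS libraries gave p = 0.0714 by the exact permutation test.

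The relation of *Kl* to the choroid plexus score was taken across libraries, which share the CPM scale. Over all 38 libraries Pearson's r was 0.84 (permutation p = 1e-05, the smallest that 100000 permutations can give, adjusted p = 0.00016 over 16 relations) and Spearman's rho was 0.42 (permutation p = 0.00976, adjusted p = 0.0312). Without mice H422 and H423, which lie farthest from the median score, r was 0.36, so the value of 0.84 rested on them. Within YS libraries r was 0.93 (n = 14, permutation p = 0.00173) and rho 0.46 (permutation p = 0.1), and r was 0.23 without the same mice. Within YDS libraries r was 0.32 (n = 14, permutation p = 0.257) and rho was 0.00 (permutation p = 1), with r at 0.04 without mice H439 and H426. Within Sham libraries r was 0.81 (n = 10, permutation p = 0.00483) and rho 0.83 (permutation p = 0.00497), with r at 0.70 without mice H405 and H408. Relative to *Ttr*, log2((*Kl* + 0.5)/(*Ttr* + 0.5)) averaged 0.96 ± 1.88 in YS and 1.90 ± 1.52 in YDS libraries (SD, n = 14 each), a difference of -0.94 (two-sided permutation test, p = 0.161). It was -0.29 without mice H422 and H423 (permutation test, p = 0.59), and without YDS mouse H439 it was -1.23 and passed the limit of 0.05 (permutation test, p = 0.0471). Relative to the mean of the list it was -0.11 (permutation test, p = 0.441).

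**Figure D3:**
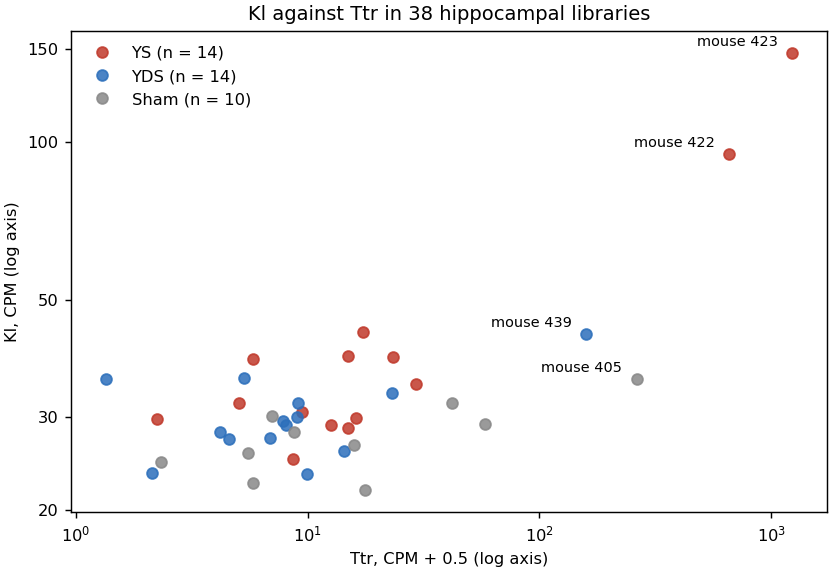
*Kl* in CPM (y axis, log) against *Ttr* in CPM plus 0.5 (x axis, log) in 14 YS, 14 YDS and 10 Sham libraries, each point 1 mouse. Mice H422 and H423 stand apart at 94.5 and 147 CPM of *Kl*, and the other 36 libraries lie between 21.9 and 43.6 CPM over *Ttr* values of 0.845 to 263 CPM.

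The dissected choroid plexus of the same experiment gives a yardstick for these 2 libraries. In 34 choroid plexus libraries, *Kl* was at 9.09 to 40.6 CPM per 1000 CPM of *Ttr*, with a median of 30.9. Above the median of the other 26 YS and YDS libraries, mouse H422 held 99.4 and mouse H423 held 95.7 CPM of *Kl* per 1000 CPM of extra *Ttr*. Other transcripts of the epithelium differed among themselves in this ratio. *Clic6* was at 75.7 and 59.8 in mice H422 and H423, against a median of 17.9 in choroid plexus, *Folr1* at 26.6 and 17.9 against 6.93, and *Abca4* at 20.8 and 29.6 against 6.69. *Kl*, *Clic6*, *Folr1* and *Abca4* stood above the highest choroid plexus ratio to *Ttr* in both mice. *Enpp2*, *Slc39a4* and *Llgl2* did so too, at 740 and 940, 5.15 and 4.02, and 1.37 and 1.77. Their highest choroid plexus ratios were 597, 1.09 and 0.579. *Prlr* was the exception among the genes compared. It was at 17.1 and 11.7, inside the choroid plexus range of 2.37 to 18.8 with its median of 10.7.

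Of the genes around α-Klotho, 9 of 19 listed were measured, among them FGF receptors, phosphate carriers and proteases that can shed it. Only *Kl* itself had an unadjusted p under 0.05, where 1.24% of all genes were higher and 5.05% lower. The receptor *Fgfr1* was at 159 to 186 CPM in YS and 157 to 215 CPM in YDS libraries (difference -0.09, unadjusted p = 0.105). The sheddase *Adam10* was at 45 to 86.2 CPM in YS and 38.7 to 74.8 CPM in YDS libraries (difference 0.13, unadjusted p = 0.189). The median of the 9 genes was 0.00, against -0.01 over all genes.

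*Abca4* and *Slc39a4* are membrane transporters. ABCA4 is known as the retinal flippase for phosphatidylethanolamine adducts, and SLC39A4 (ZIP4) imports zinc into the cell. *Abca4* was at 0.579, 2.23 and 38.1 CPM in YS and at 1.17, 1.82 and 3.1 CPM in YDS libraries (lowest, median and highest). The high YS values were those of mice H423 and H422, with 38.1 and 15.4 CPM, followed by mouse H429 with 8.21 CPM. The difference was 0.66 (standard error 0.35, unadjusted p = 0.0628, adjusted p = 0.799 by limma), and 0.21 without mice H422 and H423. By limma it was -0.06 within mice H401 to H419 and 1.20 within mice H421 to H440. By edgeR on all libraries the difference was 1.64 (unadjusted p = 0.000951, adjusted p = 0.91). *Slc39a4* was at 0.427, 1.4 and 6 CPM in YS and at 0.18, 0.849 and 2.52 CPM in YDS libraries. Mice H423 and H422 again held the highest values, with 6 and 4.42 CPM, followed by mouse H429 with 2.79 CPM. The difference of *Slc39a4* was 0.63 (standard error 0.26, unadjusted p = 0.0202, adjusted p = 0.744 by limma), with 11 of 14 YS libraries above the YDS median. Without mice H422 and H423 it was 0.39 (unadjusted p = 0.115). By edgeR on all libraries it was 0.95 (unadjusted p = 0.0228, adjusted p = 0.91). Within YDS libraries *Slc39a4* and the choroid plexus score had an r of 0.75 (n = 14, permutation p = 0.00055, rho 0.82 with permutation p = 0.00051, and r 0.60 without mice H439 and H426). Within Sham libraries r was 0.00 (n = 10, permutation p = 0.991) and rho -0.04 (permutation p = 0.918).

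The families of these transporters gave few such values. Of 21 measured genes of ABC lipid transporters and lipoprotein handling, 0 had an unadjusted p under 0.05 in either direction, with a median of 0.09. Over all genes 1.24% were higher and 5.05% lower. *Lcat*, which encodes the plasma enzyme that esterifies cholesterol, was at 16.1 to 33.5 CPM in YS and 22.1 to 37.6 CPM in YDS libraries (difference -0.23, unadjusted p = 0.0528). Of 25 zinc transporters and metallothioneins only *Slc39a4* was higher and 0 were lower, against the same shares of all genes, with a median of -0.02. The metallothionein *Mt3* was at 86.9 to 313 CPM in YS and 126 to 298 CPM in YDS libraries (difference -0.28, unadjusted p = 0.0649).

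*Llgl2* had the smallest p of all genes. It encodes a relative of the fly Lgl protein, which sets up the basolateral side of epithelial cells, and lies on chromosome 11 from 115824049 to 115855780 on the forward strand (GRCm38) with no overlapping gene. It was at 0.669, 1.98 and 6.94 CPM in YS and at 0.307, 0.901 and 1.43 CPM in YDS libraries. In Sham libraries it was at 0.529, 1.15 and 1.42 CPM. Mouse H401 held the highest value, the other YS libraries were at 0.669 to 3.33 CPM, and 13 of 14 YS libraries lay above the YDS median. The difference was 0.91 (standard error 0.18, unadjusted p = 9.15e-06, adjusted p = 0.132 by limma), beside 0.72 for YS minus Sham and -0.18 for YDS minus Sham. By DESeq2 it passed, with a difference of 1.37 (adjusted p = 0.000854), and still passed without mouse H401 (1.13, adjusted p = 0.00538). By edgeR the adjusted p was 0.0502, and 0.155 without mouse H401. Without mouse H403, the lowest YS library, the limma test passed as well (0.99, adjusted p = 0.0112). Over the alternatives run, the adjusted p of *Llgl2* lay between 0.000854 and 0.889, the highest by limma-voom. Within mice H401 to H419 the difference was 0.86 and within mice H421 to H440 it was 0.94, so it was of like size in both ranges. With the choroid plexus score as a covariate it was 0.83. Its relation to that score was also taken across libraries. Over all 38 libraries r was 0.37 (permutation p = 0.0311, adjusted p = 0.0452) and rho 0.38 (permutation p = 0.0201, adjusted p = 0.0535), and r was 0.18 without mice H422 and H423, so the value rested on them. Within Sham libraries r was 0.76 (n = 10, permutation p = 0.0113, adjusted p = 0.0181) and rho 0.66 (permutation p = 0.0431, adjusted p = 0.0766), with r at 0.82 without mice H405 and H408. Within YS libraries r was 0.19 (n = 14, permutation p = 0.445) and rho 0.20 (permutation p = 0.483), and within YDS libraries r was -0.06 (n = 14, permutation p = 0.83) and rho -0.12 (permutation p = 0.691).

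The other genes on the higher side with the smallest p were low to moderate in level. The potassium channel gene *Kcnk5* was at 0.23, 1.28 and 3.02 CPM in YS and at 0.225, 0.482 and 1.57 CPM in YDS libraries (difference 0.72, unadjusted p = 0.00045). *Dnah8*, an axonemal dynein heavy chain, was at 0.753, 1.27 and 4.45 CPM in YS and at 0.11, 0.745 and 1.33 CPM in YDS libraries (difference 0.72, unadjusted p = 0.00113). All 14 YS libraries lay above the YDS median of *Dnah8*. Both genes had an adjusted p of 0.737 by limma. A cilium gene, *Efhc2*, followed with 0.71. *Ddx58*, which encodes the RNA sensor RIG-I, and *Eif2ak2*, which encodes the double-stranded RNA kinase PKR, stood at 0.43 and 0.51. *Ddx58* was at 4.57, 6.39 and 10.2 CPM in YS and at 2.8, 4.49 and 7.98 CPM in YDS libraries, and all 14 YS libraries lay above the YDS median. In Sham libraries *Ddx58* was at 3.63, 6.03 and 9.82 CPM, with 0.13 for YS minus Sham and -0.30 for YDS minus Sham. YS minus Sham was 0.36 for *Kcnk5*, 0.68 for *Dnah8*, -0.002 for *Efhc2* and -0.20 for *Eif2ak2*. For YDS minus Sham these genes stood at -0.36, -0.05, -0.72 and -0.71, in the same order.

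Among higher expressed genes of this group, *Insr*, the insulin receptor, was at 44.3, 51.3 and 58 CPM in YS and at 39.2, 45.3 and 53.1 CPM in YDS libraries (difference 0.18, standard error 0.06, unadjusted p = 0.00501). *Adam23*, a neuronal adhesion protein, was at 147, 163 and 203 CPM in YS and at 117, 149 and 169 CPM in YDS libraries (difference 0.16). With the length trend removed the difference was 0.10 for *Insr* (unadjusted p = 0.0356) and 0.06 for *Adam23* (unadjusted p = 0.298), whose merged exons span 13746 and 17907 bases. The cell cycle inhibitor *Cdkn1c* stood at 0.52. The remaining genes of the 15 with the smallest p were *Sowahc* with 0.30, *Prickle3* with 0.53, *Dcdc2a* with 0.26, *Rai14* with 0.35, *Zfp318* with 0.24 (0.16 with the length trend removed) and *Cobll1* with 0.34. The arms overlapped in all 15. *Insr*, *Adam23* and *Cdkn1c* had 0.16, 0.14 and 0.24 for YS minus Sham and -0.02, -0.03 and -0.28 for YDS minus Sham. *Sowahc*, *Prickle3*, *Dcdc2a*, *Rai14*, *Zfp318* and *Cobll1* had -0.13, 0.23, -0.04, 0.18, 0.16 and 0.08 for YS minus Sham. For YDS minus Sham these were -0.43, -0.31, -0.31, -0.17, -0.08 and -0.26.

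Of the 15 genes on the lower side with the smallest p, *Elp5* came first. *Elp5*, a subunit of the Elongator complex that modifies transfer RNA, was at 28.3, 36.6 and 43.5 CPM in YS and at 39.5, 44.7 and 52.4 CPM in YDS libraries. In Sham libraries it was at 31.9, 44.5 and 50.9 CPM. All 14 YS libraries lay at or below the YDS median, with an overlap of the arms between 39.5 and 43.5 CPM. The difference was -0.29 (standard error 0.07, unadjusted p = 0.000143, adjusted p = 0.701 by limma). *Cdk2ap2* was at 7.44, 9.43 and 14 CPM in YS and at 8.24, 13.1 and 16.8 CPM in YDS libraries (difference -0.45, standard error 0.11, adjusted p = 0.701). *Ubb*, a polyubiquitin gene, was at 193, 218 and 269 CPM in YS and at 222, 253 and 280 CPM in YDS libraries (difference -0.19, and -0.11 with the length trend removed). Other genes with known roles were the RNA polymerase II subunit *Polr2c* with -0.31, the mitochondrial ribosomal protein gene *Mrpl10* with -0.22 (-0.14 with the length trend removed), the dynein light chain *Dnal4* with -0.25, the arginine methyltransferase *Prmt2* with -0.23, the centromere factor *Mis18a* with -0.56 and the chromatin remodelling subunit *Bcl7b* with -0.24. The rest were *1110065P20Rik* with -0.35, *Selenoh* with -0.44, *Ypel3* with -0.36, *Triap1* with -0.49, *Dusp28* with -0.35 and *Creld1* with -0.18. Reads of *Elp5*, *Polr2c*, *Mrpl10*, *Dusp28* and *1110065P20Rik*, and those of *Abca4*, *Folr1*, *Dnah8*, *Junb*, *Atp5d* and *H2-Eb1*, may include reads of genes that overlap them on the opposite strand. The same holds for *Efhc2*, *Prickle3*, *Eif2ak2*, *Adam23*, *Insr*, *Dcdc2a*, *Cdkn1c*, *Rai14*, *Zfp318* and *Cobll1* on the higher side. It also holds for *Enpp2*, *Trpm3*, *Igf2*, *Fgfr1*, *Lcat*, *Bdnf* and *Nr1d1*.

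Immediate early genes, which neurons transcribe within minutes of activity, were the list with the largest share on the lower side among those with 20 or more members. Of 20 measured, 9 were lower at an unadjusted p under 0.05, against 5.05% of all genes, and 0 were higher. The median was -0.23, and 19 of 20 differences were negative, beside 7823 of all 14440 genes. After adjustment 0 passed. *Egr4*, a zinc finger transcription factor, was at 28.8, 39.6 and 66.5 CPM in YS and at 40.6, 49.7 and 75.6 CPM in YDS libraries (difference -0.37, standard error 0.11, unadjusted p = 0.00148, adjusted p = 0.737 by limma). In 13 of 14 YS libraries *Egr4* lay below the YDS median, and mouse H401 held the highest YS value. The nuclear receptor gene *Nr4a1* was at 43.2, 66 and 95.3 CPM in YS and at 54.7, 89 and 117 CPM in YDS libraries (difference -0.38, unadjusted p = 0.0028). *Arc*, a synaptic protein of memory formation, was at 112, 169 and 282 CPM in YS and at 155, 216 and 340 CPM in YDS libraries (difference -0.46, unadjusted p = 0.0029). *Junb* was at 57, 78.7 and 116 CPM in YS and at 72.5, 100 and 145 CPM in YDS libraries (difference -0.35, unadjusted p = 0.00367). In Sham libraries the medians were 51.3 CPM for *Egr4*, 73.5 for *Nr4a1*, 179 for *Arc* and 101 for *Junb*, and the arms overlapped in all 4 genes.

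**Figure D4:**
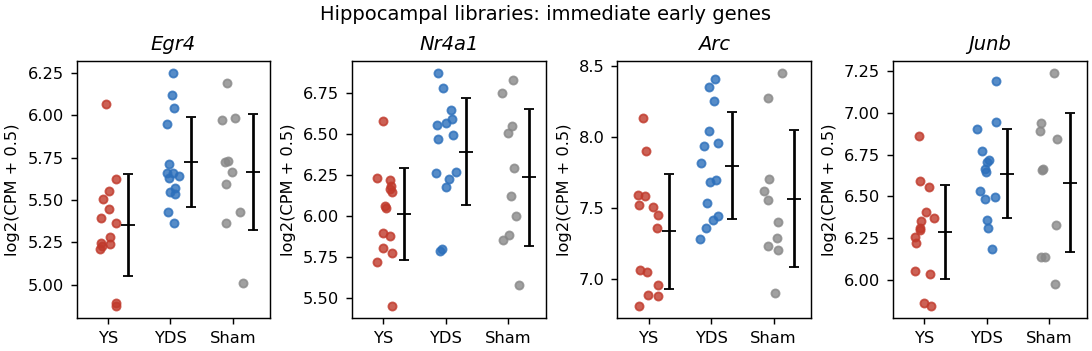
Level on the log2(CPM + 0.5) scale (y axis) of *Egr4*, *Nr4a1*, *Arc* and *Junb* in YS (n = 14), YDS (n = 14) and Sham (n = 10) libraries. Points are libraries and bars are the mean with SD. The arms overlap in each gene, with differences of YS minus YDS of -0.37, -0.38, -0.46 and -0.35.

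The other members at an unadjusted p under 0.05 were *Egr2* with -0.58, *Fos* with -0.58, *Ier2* with -0.36, *Dusp6* with -0.23 and *Egr1* with -0.22. *Fosb* with -0.09, *Klf2* with -0.03, *Homer1* with -0.01 and *Btg2* with 0.02 lay near 0. The count depended on the range of animal numbers. Within mice H401 to H419 it was 0 of 20, with a median of -0.08, and within mice H421 to H440 it was 10 of 20, with a median of -0.36. Of all 14440 genes, 659 were lower in the first range and 233 in the second. Whether the ranges differ was not tested. The count was 11 without mice H422 and H423, 11 without mice H427, H424, H405, H406 and H407, 7 without mice H401, H429, H439, H408 and H410, and 8 with the length trend removed. The list of synaptic plasticity genes, which shares *Arc*, *Homer1* and *Bdnf* with it, had 1 of 30 lower, *Arc*, against 5.05% of all genes. The median of that list was 0.01. The growth factor *Bdnf* was at 29.1 to 69.1 CPM in YS and 41.1 to 79.5 CPM in YDS libraries (difference -0.16, unadjusted p = 0.0966).

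The promoters of 3 of these genes are shown because the genes stood together on the lower side and because many activity genes are known to be switched on by CREB, a factor that binds the half-site TGACG, or its longer palindrome that joins the half-site with its reverse complement. The windows hold 250 bases before and 50 after the start, 5′ to 3′ on the strand of the gene, from RefSeq on GRCm38.p6. Capitals mark TGACG on either strand (CGTCA on the printed one). *Egr4* is at chr6:85513540-85513839 on the reverse strand, *Nr4a1* at chr15:101266596-101266895 on the forward strand and *Junb* at chr8:84978699-84978998 on the reverse strand.
Egr4: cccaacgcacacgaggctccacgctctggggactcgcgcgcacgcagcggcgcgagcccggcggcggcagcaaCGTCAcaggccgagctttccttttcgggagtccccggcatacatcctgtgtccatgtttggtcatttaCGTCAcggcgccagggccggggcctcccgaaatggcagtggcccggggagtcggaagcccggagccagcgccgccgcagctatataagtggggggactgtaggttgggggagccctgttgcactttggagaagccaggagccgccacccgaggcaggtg
Nr4a1: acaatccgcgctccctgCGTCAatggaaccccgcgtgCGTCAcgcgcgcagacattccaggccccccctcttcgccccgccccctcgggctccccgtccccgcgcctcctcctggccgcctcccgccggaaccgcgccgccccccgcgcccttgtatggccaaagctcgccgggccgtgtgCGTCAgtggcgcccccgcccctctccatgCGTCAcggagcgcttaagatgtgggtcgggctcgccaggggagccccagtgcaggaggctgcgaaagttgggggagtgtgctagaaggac
Junb: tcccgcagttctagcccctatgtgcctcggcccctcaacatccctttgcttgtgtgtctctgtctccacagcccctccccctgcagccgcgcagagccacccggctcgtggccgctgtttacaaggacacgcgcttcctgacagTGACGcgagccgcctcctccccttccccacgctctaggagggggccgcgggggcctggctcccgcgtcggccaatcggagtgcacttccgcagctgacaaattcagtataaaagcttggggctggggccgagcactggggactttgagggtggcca
The windows of *Egr4*, *Nr4a1* and *Junb* held 2, 4 and 1 copies. Of the 20 genes, 16 had a window, and 14 of these held TGACG in at least 1 of their windows, which is 16 of 27 windows. *Dusp6* and *Ier5* held none. Over all 32851 windows the share with TGACG was 20.8% and that with the longer palindrome was 1.79%. The palindrome stood in windows of 2 of the 16 genes, *Btg2* and *Dusp1*, which is 2 of 27 windows. A match of letters is no measure of binding, and binding was not measured here.

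**Figure D5:**
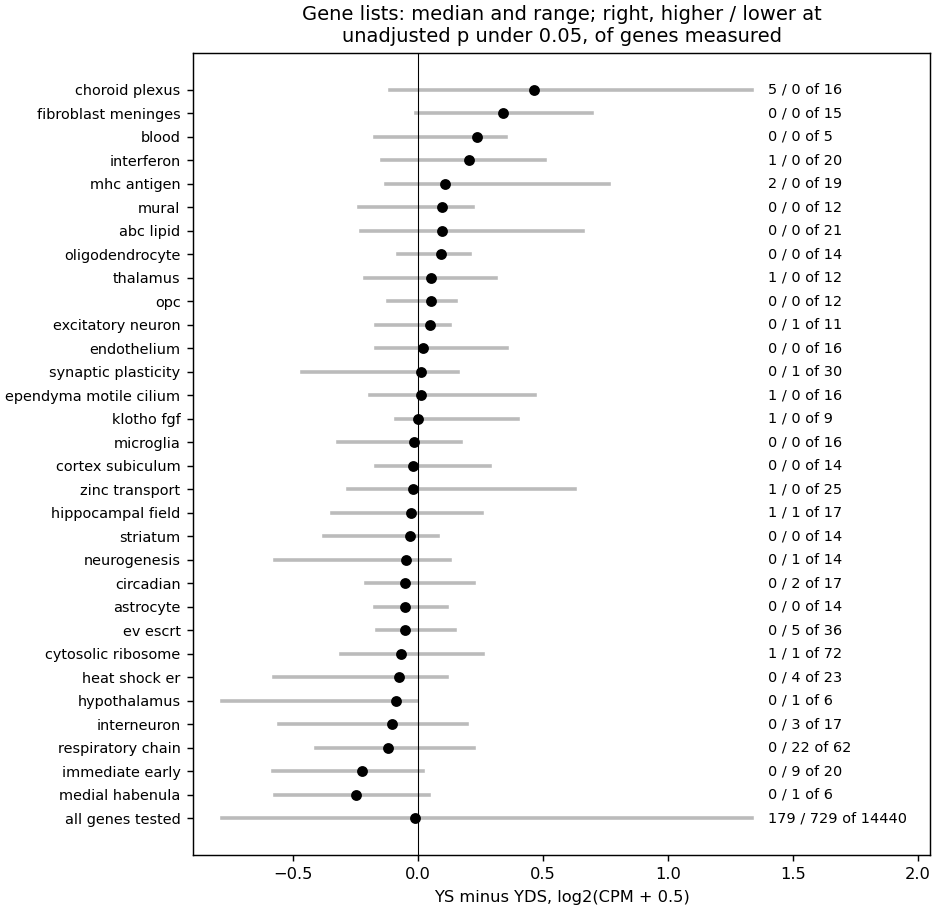
Differences of YS minus YDS on the log2(CPM + 0.5) scale (x axis) for gene lists and for all genes tested (bottom row). Points are medians over the measured members, lines run from the lowest to the highest member, and the right column counts members on the higher and on the lower side with an unadjusted p under 0.05. Choroid plexus stands at the top with a median of 0.46, and immediate early genes stand near the bottom with -0.23 and 9 of 20 lower.

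The respiratory chain, the enzyme complexes of the inner mitochondrial membrane, had the largest number of members on the lower side. Of 62 measured, 22 were lower at an unadjusted p under 0.05, against 5.05% of all genes, and 0 were higher, with a median of -0.12. The median was -0.25 for YS minus Sham and -0.11 for YDS minus Sham. The count was 19 without mice H422 and H423, 26 without mice H427, H424, H405, H406 and H407, and 13 without mice H401, H429, H439, H408 and H410. *Atp5d*, a subunit of ATP synthase, was at 57.5, 76.9 and 108 CPM in YS and at 78.3, 91.8 and 113 CPM in YDS libraries (difference -0.24, standard error 0.07, unadjusted p = 0.00166). The complex I subunit *Ndufa6* was at 18.1, 26.3 and 32.9 CPM in YS and at 22, 31.4 and 39.5 CPM in YDS libraries (difference -0.26). *Cox6a1* of complex IV and *Atp5j2* stood at -0.27 each. With the length trend removed *Cox6a1* was at -0.15, the count was 7 of 62 and the median -0.06. Within mice H401 to H419 it was 24 of 62 (median -0.23) and within mice H421 to H440 it was 0 of 62 (median -0.05), which is the opposite order to that of the immediate early genes. Of all 14440 genes, 659 were lower in the first range and 233 in the second. Whether the ranges differ was not tested here either. Of 72 cytosolic ribosomal protein genes, 1 was higher and 1 lower, against 1.24% and 5.05% of all genes, with a median of -0.07. Those genes have close copies elsewhere in the genome that may share their reads.

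Of the genes by which cells make and sort EVs, 36 of 37 listed were measured, and 5 were lower at an unadjusted p under 0.05, against 5.05% of all genes, and 0 higher, with a median of -0.05. The count was 6 without mice H422 and H423, 7 without mice H427, H424, H405, H406 and H407, and 5 without mice H401, H429, H439, H408 and H410. With TMM factors 3 were lower, beside 539 of all 14440 genes. Within mice H401 to H419 3 were lower and 0 higher (median -0.13), beside 659 and 148 of all genes. Within mice H421 to H440 0 were lower and 2 higher (median -0.01), beside 233 and 180 of all genes. The raft protein genes *Flot1* and *Flot2* stood at -0.16 and -0.12. *Flot1* was at 91.4 to 135 CPM in YS and 107 to 141 CPM in YDS libraries. The ESCRT-III subunit *Chmp4b* was at 139 to 185 CPM in YS and 159 to 205 CPM in YDS libraries (difference -0.12, unadjusted p = 0.0165). With the length trend removed 1 of the 36 was lower, and the differences were -0.05 for *Chmp4b* and -0.06 for *Flot2*. Of 23 chaperone and ER stress genes 4 were lower, against the same 5.05% of all genes, namely *Hspa1b* with -0.29, *Dnajb5* with -0.19, *Hspb1* with -0.58 and *Dnajb1* with -0.19. Without the 3 sets of libraries, in the order above, 6, 4 and 4 were lower. Of 17 clock genes 2 were lower, against 5.05% of all genes, the repressors *Nr1d1* with -0.14 and *Per2* with -0.15. Without the same sets 1, 3 and 1 were lower.

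*Avp*, *Tac2* and *Sncg* were low in all arms. Vasopressin (*Avp*) is made by hypothalamic neurons and is a marker of tissue outside the hippocampus. It was listed at 0 in 8 of 14 YS, 1 of 14 YDS and 2 of 10 Sham libraries, with medians of 0, 0.66 and 0.327 CPM in this order. The highest value was 1.12 CPM in YS, 2.13 CPM in YDS and 3.4 CPM in Sham libraries. These are the libraries of mice H427, H424 and H406, which stand apart on the first principal component. The difference was -0.79 (standard error 0.29, unadjusted p = 0.0091, adjusted p = 0.744 by limma), and -0.79 without mice H427, H424, H405, H406 and H407. The tachykinin gene *Tac2*, a marker of medial habenula, was at 0.478, 1.28 and 3.32 CPM in YS and at 0.622, 2.43 and 3.42 CPM in YDS libraries. Mice H427, H424 and H405 held the highest value of their arms. The difference was -0.57 (standard error 0.20, unadjusted p = 0.0071, adjusted p = 0.744), -0.61 without the 5 libraries that stand apart on the first component, and -0.15 with habenula and hypothalamus scores as covariates. *Tac2* is itself in the habenula score, as *Avp* is in that of the hypothalamus. *Sncg*, which encodes γ-synuclein, was at 0.488, 1.62 and 2.57 CPM in YS and at 0.707, 2.06 and 4.67 CPM in YDS libraries (difference -0.47, unadjusted p = 0.0322, adjusted p = 0.767).

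The lists of these neighbouring regions were short. Of 17 hypothalamic genes 6 were measured and 1, *Avp*, was lower, against 5.05% of all genes, with a median of -0.09. The summed level of the 6 was 127 to 307 CPM in YS, 121 to 293 CPM in YDS and 140 to 291 CPM in Sham libraries. Most of that sum was *Hap1*, at 121 to 286 CPM in YS, 107 to 274 CPM in YDS and 130 to 269 CPM in Sham libraries. Of 18 habenula genes 6 were measured and 1, *Tac2*, was lower, against 5.05% of all genes, with a median of -0.25. Their sum was 64.6 to 104 CPM in YS, 67.1 to 113 CPM in YDS and 56.6 to 119 CPM in Sham libraries. The part of such tissue in *Avp* and *Tac2* was not tested beyond these values. Of 17 interneuron genes 3 were lower at an unadjusted p under 0.05, against 5.05% of all genes, the peptides cortistatin (*Cort*) with -0.56, somatostatin (*Sst*) with -0.39 and cholecystokinin (*Cck*) with -0.17, which was -0.08 with the length trend removed. The count was 1 without mice H422 and H423, 4 without mice H427, H424, H405, H406 and H407, and 3 without mice H401, H429, H439, H408 and H410. *Sst* was at 53.6, 90 and 245 CPM in YS and at 97.3, 119 and 267 CPM in YDS libraries, and its difference was 0.02 with habenula and hypothalamus scores as covariates. Neuropeptide Y (*Npy*) was at 9.04 to 36.7 CPM in YS and 13.6 to 37.4 CPM in YDS libraries (difference -0.34, unadjusted p = 0.052).

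Few markers of the other cell types of the tissue passed the unadjusted limit. Over all genes 1.24% were higher and 5.05% lower at that limit. Of all 14440 differences, 6617 were positive and 7823 negative. At an unadjusted p under 0.05, 0 of 14 astrocyte, 0 of 16 microglial, 0 of 14 oligodendrocyte and 0 of 16 endothelial genes were on either side, with medians of -0.05, -0.02, 0.09 and 0.02. Of the oligodendrocyte genes 12 differences were positive, with a median of -0.11 within mice H401 to H419 and 0.26 within mice H421 to H440. Of the astrocyte genes 11 were negative, with medians of -0.06 and -0.04 in these ranges. Of 11 genes of excitatory neurons 1 was lower. Of 15 fibroblast and meningeal genes 0 were on either side, but 14 differences were positive, with a median of 0.34, and -0.00 within mice H401 to H419 and 0.48 within mice H421 to H440. The summed level of these 15 genes was 180 to 1387 CPM in YS, 195 to 1229 CPM in YDS and 240 to 1194 CPM in Sham libraries.

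Interferon-induced and antigen presentation genes had few members past the unadjusted limit. Of 20 interferon-induced genes 18 differences were positive, beside 6617 of all 14440 genes. At an unadjusted p under 0.05, 1, *Ddx58*, was higher, against 1.24% of all genes, and 0 were lower, with a median of 0.20. The PKR gene *Eif2ak2*, with 0.51, was not in this list. Within mice H401 to H419 1 of the 20 was higher, with a median of 0.13. Within mice H421 to H440 4 were higher, with a median of 0.36. Of all 14440 genes, 148 were higher in the first range and 180 in the second. *Ifit3* was at 3.21, 7.77 and 22.7 CPM in YS and at 3.27, 7 and 8.39 CPM in YDS libraries (difference 0.40, unadjusted p = 0.0796). The median of these 20 genes was -0.08 for YS minus Sham and -0.34 for YDS minus Sham, and *Ifit3* reached 23.8 CPM in Sham libraries. Of 19 antigen presentation genes 13 differences were positive and 6 negative, with a median of 0.11. Their median was -0.13 for YS minus Sham and -0.25 for YDS minus Sham. At the same limit 2 were higher, against 1.24% of all genes, the class II genes *H2-Eb1* and *H2-Ab1*, and 0 were lower. The count was 1 without mice H422 and H423, 1 without mice H427, H424, H405, H406 and H407, and 0 without mice H401, H429, H439, H408 and H410. It was 0 within mice H401 to H419, with a median of -0.10, and within mice H421 to H440 it was 5, with a median of 0.32. These stand beside the same 148 and 180 of all genes. *H2-Eb1* was at 0.387, 1.69 and 6.74 CPM in YS and at 0, 0.704 and 2.86 CPM in YDS libraries (difference 0.76, standard error 0.28, unadjusted p = 0.00857, adjusted p = 0.744 by limma). For *H2-Eb1* the difference was -0.10 within mice H401 to H419 and 1.41 within mice H421 to H440.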

How the data were processed

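RNA-seq of tissue labelled hippocampus was analysed for 14 YS, 14 YDS and 10 Sham mice. The authors deposited CPM values per gene and library. Their notes name the mm10 build, featureCounts and edgeR, while the strand setting of the counting is not given in the sources used here. The table also holds the authors' own fold changes and p-values, which were not used. All CPM values were whole reads within a tolerance of 0.05, so reads were recovered for count tests. The 21 symbols changed to dates were restored, and 14225 genes had an exon length. Gene positions are on GRCm38.

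The main test was limma 3.58.1 (R 4.3.3) with a mean-variance trend on log2(CPM + 0.5), with 3 arms in 1 fit and p-values adjusted over 14440 genes. Alternatives were edgeR 4.0.16, DESeq2 1.42.0, limma-voom, sva 3.50.0, TMM and RLE scaling, other pseudocounts, covariates, ranges of animal numbers and leaving out libraries. Single values were compared by permutation with 100000 resamples, or exactly within ranges. The scripts were tested on simulated data. Named genes were those the study names for hippocampus, the tissue markers, the 15 genes with the smallest p in each direction with an average log2 value over 0, and up to 4 genes per list. Other list members were named after their values were seen. Members and lists were chosen with earlier results of these data known. The p-values measure the spread between mice.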

Additional observations from a re-analysis of the deposited data

Results flagged for a closer look

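Among 102 groups of Sham values examined, 5 had a lowest or highest library farther from the rest than Dixon's limit for 10 samples, where chance gives about 1 in 20. The ratio is the gap to the next library over the whole range. *Prickle3* was highest in mouse H408, with a ratio of 0.468. In mouse H432 *Cobll1*, *Cdk2ap2* and *Cfap126* were lowest, with ratios of 0.521, 0.493 and 0.575. *Rab35* was lowest in mouse H410, with 0.467. The YS and YDS groups of 14 were not examined in this way.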

How the results depend on the processing

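Of 4900 values of 100 named genes over the alternatives, 4871 kept their direction and their side of the threshold, 24 reversed and 5 came to pass it. No gene passed in the main test, so keeping the side meant only that a value again did not pass. Many alternatives left out only 1 library, so the 4871 are no measure of how firm a difference is. The cause of the moves below was not tested. For YS against YDS, the number called was 1 with DESeq2, and 3 (*Llgl2*, *Cdk2ap2* and *Clic6*) with DESeq2 without mouse H401. The number higher at an unadjusted p under 0.05 was 292 with TMM and 298 with RLE factors, 91 with the choroid plexus score as a covariate, 1704 with habenula and hypothalamus scores, 395 with 1 surrogate variable, 318 with edgeR, 275 with limma-voom, 347 with DESeq2 and 269 with DESeq2 without mouse H401. The number lower was 233 in mice H421 to H440, 410 with the length trend removed, 444 with edgeR, 455 with DESeq2, and 366 and 372 with these tools without mouse H401. Leaving out 1 library at a time gave 0 to 1 called, 126 to 276 higher and 540 to 1018 lower. The choroid plexus score differed by 0.33 to 0.58 when 1 library was left out and by 0.57 as log2 summed CPM, and the log ratio of *Kl* to *Ttr* by -1.23 to -0.63. The relation of *Kl* to the score within YDS was 0.32.

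For YS against Sham the number called was 1 with TMM factors, 9 with RLE factors, 3 with the choroid plexus score, 0 with habenula and hypothalamus scores, 83 with 1 surrogate variable, 0 without mice H422 and H423, 173 without mice H427, H424, H405, H406 and H407, 0 without mice H401, H429, H439, H408 and H410, 3 with the number range as a covariate, 3794 in mice H401 to H419, 0 in mice H421 to H440, 2 with the length trend removed, 1 with edgeR, 0 with limma-voom and 262 with DESeq2. It was 0 to 653 with 1 library left out. For YDS against Sham it was 1 with TMM, 1 with RLE, 89 with habenula and hypothalamus scores, 2 with 1 surrogate variable, 7 without mice H427, H424, H405, H406 and H407, 2316 in mice H401 to H419, 1 with the length trend removed, 1 with limma-voom, 7 with DESeq2, and 0 to 29 with 1 library left out, 29 without mouse H424.

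Signs reversed in mice H401 to H419 for *Abca4* (-0.060), *Prlr* (-0.020), *Foxj1* (-0.11), *Igf2* (-0.023), *Slc13a4* (-0.080), *Crh* (0.043), *Per1* (0.012), *H2-Eb1* (-0.10), *H2-Aa* (-0.077) and *Cd74* (-0.12), and in mice H421 to H440 for *Cfap126* (0.051). They reversed with the choroid plexus score for *Ttr* (-0.13), *Folr1* (-0.010), *Foxj1* (-0.031) and *Hap1* (0.031), and with habenula and hypothalamus scores for *Stx1a* (0.0044), *Sst* (0.019), *Hap1* (0.10), *Crh* (0.15), *Tac1* (0.060) and *Calb2* (0.12). Members of a list are part of its score, which by itself draws their differences toward 0. This holds for *Ttr* in the choroid plexus score, *Hap1* and *Crh* in that of hypothalamus, and *Tac1* and *Calb2* in that of habenula. *Crh* also reversed without mice H401, H429, H439, H408 and H410 (0.015), and without mouse H401 by edgeR (0.026) and DESeq2 (0.032).

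The splits by animal number, the length trend and the sets of libraries left out were chosen after seeing the data. A covariate of *Xist* was not run, since the table has no row for it. No paired analysis was possible because each mouse gave 1 hippocampal library and the arms share no replicate number. At these depths, low genes rest on few reads per library. Genes that overlap another on the opposite strand cannot be told apart from it.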
